A study of Equus caballus with 4 samples.

Results

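The genes described here are those of transforming growth factor β (TGF-β), myostatin and activin signaling: the ligands TGFB1, TGFB2, TGFB3, MSTN and INHBA, the antagonist FST, the receptors TGFBR1, TGFBR2 and ACVR2B, and the transducer SMAD3. Their probes were found by the gene name in the array files. This gave 9 of the 10 genes, of 24998 gene names on the array, with 24 of the 43603 noncontrol probes. No probe carried the name TGFBR1, but 6 probes named ALK5, an older name of the same receptor, are described in the files as its transcript and were added. A further 2 probes named only by an expressed sequence tag matched TGFB2 through their accession, so that 32 probes were described.

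Equine satellite cells from the m. semitendinosus were grown in primary culture and allowed to differentiate. Cells of the GO group were incubated for 24 h with 125 nM gamma-oryzanol (GO), a mixture of ferulic acid esters from rice bran oil, and control cells received only the vehicle, DMSO at 0.04 μl/ml, which the GO group received too. RNA was taken on day 3 of differentiation. Each of 4 two-color arrays held RNA of GO-treated cells labeled with Cy5 and RNA of control cells labeled with Cy3. No array had the dyes swapped, so the design cannot tell an effect of the dye apart from that of GO. The labels call the arrays biological replicates, while the methods describe the choice of the best cell line, and whether the 4 arrays stand for different horses was not settled by these sources. If they do not, the p-values below measure only the spread between cultures. No strain, sex or age of the horses is used here.

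TGF-β ligands are secreted in latent form, bind a type II receptor that then activates a type I receptor, and pass their signal to the nucleus through SMAD2 and SMAD3. Activins, dimers of inhibin beta chains such as INHBA, and myostatin (MSTN) bind the activin type II receptors and use the same SMAD proteins, and follistatin (FST) traps both in the extracellular space. In skeletal muscle these ligands are best known as brakes on myoblast differentiation and fiber growth, and FST as the counterweight to myostatin.

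Values are log2 ratios of GO over control within an array, from the dye-normalized signals. Between 57.4 and 68.9% of noncontrol spots were well above background per channel and array, no noncontrol spot was saturated, and all 4 arrays lay on a single slide. The test was run on the 26831 probes well above background in at least 1 channel on all 4 arrays, with limma and Benjamini-Hochberg adjustment over all of them. A probe is counted as changed, or past both thresholds, when its fold change (FC) is 1.3 or more, which is 0.38 on the log2 scale, and its adjusted p does not exceed 0.05. Where a gene had several tested probes, the one with the highest mean signal stands for it. The precision is limited by there being only 4 arrays.

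The array reports each gene through probes of 60 bases, and what a probe reads depends on where it lies. Probes of the 3 TGF-β isoforms are shown first because TGFB1 and TGFB2 changed in opposite directions. Capitals mark the longest run that a probe shares with either of the other isoforms' probes, which was at most 7 bases, and all 3 probes have 27 G or C bases. The TGFB1 probe lies at chr10:11890705-11892011, the TGFB2 probe at chr30:4092948-4093007 and the TGFB3 probe at chr24:20972377-20974213, all on the minus strand of EquCab1. The TGFB1 and TGFB3 probes span 1307 and 1837 bases of the genome, more than their own length, so their bases lie in more than 1 block of the genome.
TGFB1: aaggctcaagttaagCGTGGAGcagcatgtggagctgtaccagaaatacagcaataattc
TGFB2: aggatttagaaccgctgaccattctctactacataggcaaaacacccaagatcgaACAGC
TGFB3: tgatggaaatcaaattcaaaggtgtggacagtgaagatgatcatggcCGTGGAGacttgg

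The MSTN probes are shown because they adjoin each other without a gap, at chr18:55024960-55025019 and chr18:55024900-55024959 on the minus strand, and yet only the upstream probe gave a signal above background. Capitals mark a TGA at the very end of the downstream probe. They hold 24 and 25 G or C bases.
MSTN upstream: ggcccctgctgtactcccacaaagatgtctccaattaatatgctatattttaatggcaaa
MSTN downstream: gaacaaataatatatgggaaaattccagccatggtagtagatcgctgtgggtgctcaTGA

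Of the 10 genes, 9 had a tested probe, and ACVR2B had none. Past both thresholds were 3 of these 9 genes: TGFB1 was higher, and TGFB2 and FST were lower in GO-treated than in control cells. Over all tested gene names, each with its probe of highest signal, 8.82% were past both thresholds, 3.46% higher and 5.37% lower. Counted by probe, 4 of the 22 tested probes found by gene name passed, and 6 of 29 with the added probes, against 8.94% of all tested probes. Of these 6 probes, 4 were of TGFB2. Most probes of INHBA, SMAD3 and TGFBR2 overlap nearly in full, so the probes are not independent measurements. The adjusted p alone was met by 6 of the 9 genes, against 17.1% of all gene names, since INHBA, TGFBR2 and SMAD3 met it with a fold change under 1.3. With each array centred on its median and no lowess step, these 3 had adjusted p of 0.179, 0.0604 and 0.0669 (limma). They also missed 0.05 in a one-sample test, with the channels unpaired, and without array 2, 3 or 4. All 4 arrays went the same way for 7 of the 9 genes, the exceptions being TGFB3 and TGFBR1, and for 41% of all gene names. Without the filter on dim probes the adjusted p was 0.0758 for TGFB1 and 0.0816 for FST, and both were also lost with a one-sample test in place of limma and with the channels unpaired, where TGFB2 alone remained. The shares describe 9 genes that were chosen with earlier results of these data known.

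**Figure D1:**
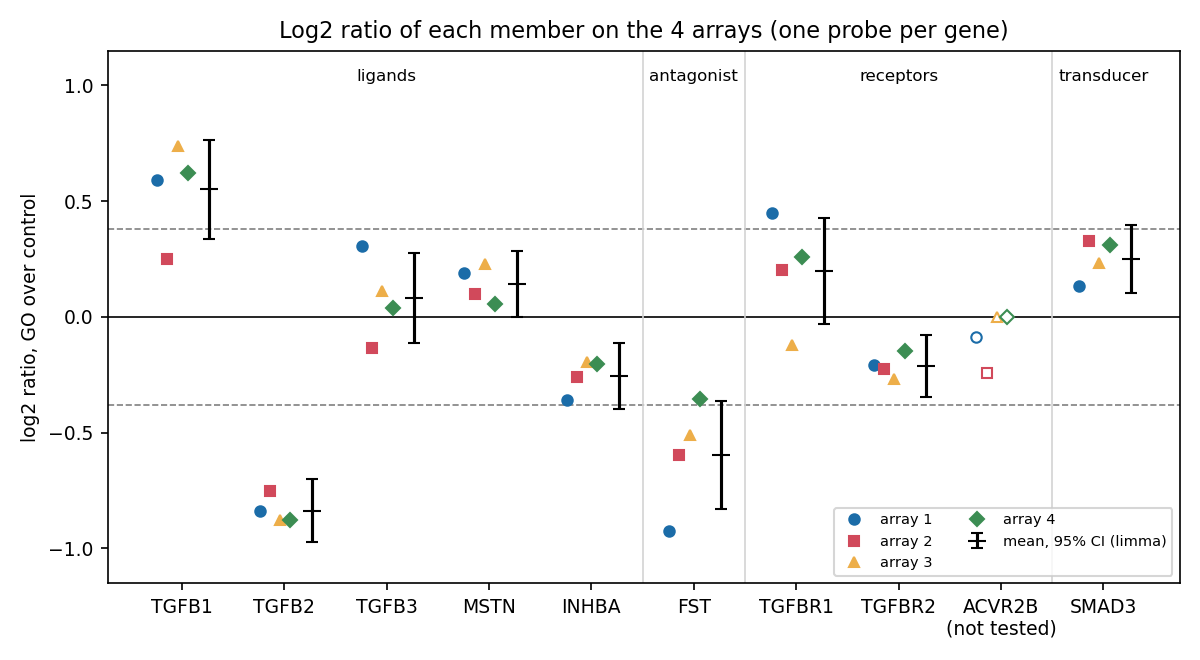
Log2 ratio of GO over control (y axis) for each member gene (x axis) on arrays 1 to 4 (colored points), with the mean and the 95% confidence interval from limma (black). Dashed lines mark the fold change threshold of 1.3, and open points mark ACVR2B, which was not tested. All 4 points of TGFB2 lie below the lower dashed line.

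The largest difference among the members was that of TGFB2, an isoform known to hold back the differentiation of myoblasts. Its probe gave control signals of 9982, 9120, 10261 and 8880 on arrays 1 to 4. In GO-treated cells its signals were 5576, 5408, 5588 and 4830. Every control signal was above every GO signal. For no other member were the channels of the 4 arrays without overlap. Over all gene names this was so for 7.13%, with either channel the higher. The mean log2 ratio was -0.84 ± 0.06 (SD, n = 4 arrays), FC 1.79 lower, at an adjusted p of 0.00121 (limma). Of the 15321 gene names tested, 158 had a lower mean log2 ratio.

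A second TGFB2 probe of the same name adjoins the first without a gap and gave a log2 ratio of -0.86 ± 0.07 (SD, n = 4). The added TGFB2 probes, at chr30:4092198-4092257 and chr30:4092138-4092197, lie 630 bases further downstream on the minus strand. Their log2 ratios were -0.67 ± 0.05 and -0.57 ± 0.10 (SD, n = 4). All 4 TGFB2 probes were thus past both thresholds, with adjusted p of 0.00121 to 0.00461 (limma), and their 95% confidence intervals spanned -0.998 to -0.421 in all.

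TGFB1, the isoform most studied in fibrosis and wound repair, went the other way. Its only probe gave control signals of 265.8, 380.3, 224.6 and 201.6 on arrays 1 to 4, and GO signals of 401.0, 451.9, 375.0 and 310.6. GO was above control within each array, while across arrays the channels overlapped because array 2 was high in both. The log2 ratios were 0.59, 0.25, 0.74 and 0.62, with a mean of 0.55 ± 0.21 (SD, n = 4), FC 1.47 higher and an adjusted p of 0.0117 (limma). Of all gene names, 181 had a higher mean log2 ratio.

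TGFB3, the third isoform, was not past either threshold. The signals of its probe were 312.6, 441.1, 255.6 and 248.1 in control cells and 386.5, 402.3, 276.5 and 254.7 in GO-treated cells. Array 2 was lower in GO and the other 3 arrays were higher. The mean log2 ratio was 0.08 ± 0.18 (SD, n = 4; adjusted p = 0.516, limma), with a 95% confidence interval of -0.11 to 0.28.

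The isoforms were then compared within each array. The log2 ratio of TGFB2 was below that of TGFB1 on every array, with differences of -1.616 to -1.003 and a mean of -1.39 ± 0.27 (SD, n = 4). It was also below that of TGFB3 on every array, with a mean difference of -0.92 ± 0.22 (SD, n = 4). TGFB1 exceeded TGFB3 by 0.47 ± 0.16 (SD, n = 4), with values of 0.29 to 0.63. For each of the 6 differences between members examined here, 2 of the 16 sign patterns of an exact permutation test over 4 arrays were as large, a two-sided p of 0.13, also after adjustment over the 6. This is the smallest p that 4 arrays allow, so this test could not pass the threshold at this size.

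**Figure D2:**
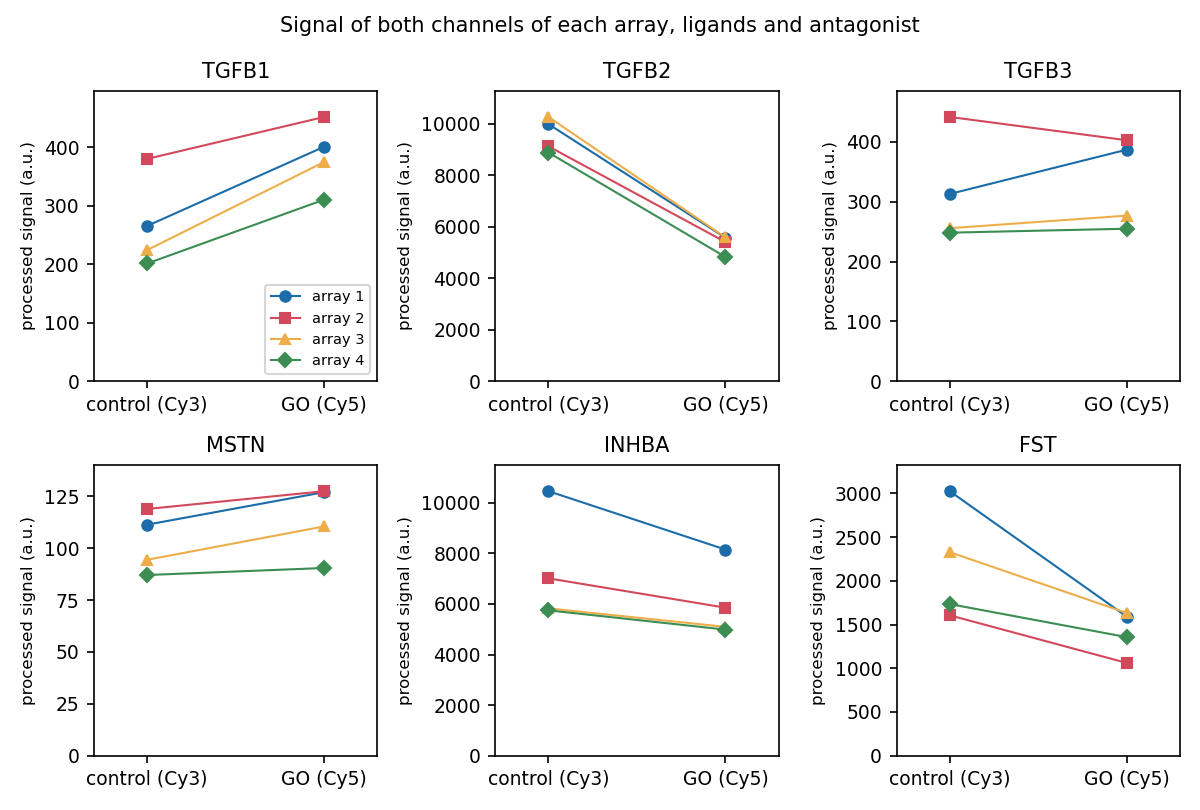
Processed signal in arbitrary units (y axis, from 0) of the control channel (Cy3) and the GO channel (Cy5) for the ligands and the antagonist. Each line joins both channels of 1 array. The 4 TGFB2 lines fall from between 8880 and 10261 to between 4830 and 5588, and the 4 TGFB1 lines rise.

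INHBA encodes the beta A chain, of which activin A is a dimer. The signals of its probe were 10460, 7013, 5824 and 5747 in control cells of arrays 1 to 4, and 8152, 5853, 5095 and 4987 in GO-treated cells. GO was below control within every array, with log2 ratios of -0.36, -0.26, -0.19 and -0.20. Array 1 was the highest in both channels and had the largest fall. The mean log2 ratio of -0.25 ± 0.08 (SD, n = 4; adjusted p = 0.0324, limma) met the adjusted p but, at FC 1.19, not the fold change threshold. The other 3 INHBA probes are the same stretch of chromosome 4 shifted by single bases, sharing 59 of 60 bases with the next, and gave -0.24 to -0.23. They are 1 measurement repeated rather than independent support. One of these probes was spotted 5 times per array, and its spots differed within an array by an SD of 0.015 to 0.017, against 0.08 between arrays, so that the spread between arrays was larger than the spotting error.

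FST, the secreted antagonist of activin and myostatin, was past both thresholds. Its only probe, at chr21:14378171-14378230, gave control signals of 3026, 1606, 2328 and 1735 and GO signals of 1592, 1061, 1633 and 1357. The fall was largest on array 1, with a log2 ratio of -0.93, and smallest on array 4, with -0.35, and the lowest control signal was below the highest GO signal. The mean was -0.60 ± 0.24 (SD, n = 4), FC 1.51 lower, with an adjusted p of 0.0120 (limma). Without array 2 the adjusted p was 0.0545. The log2 ratio of INHBA was above that of FST on every array, by 0.15 to 0.57 and by 0.34 ± 0.17 on average (SD, n = 4; exact permutation p = 0.13).

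MSTN, the muscle-made inhibitor of muscle growth, was read by the upstream probe shown above. Its signals were 111.3, 118.8, 94.4 and 87.0 in control cells and 127.0, 127.4, 110.5 and 90.4 in GO-treated cells. GO was above control on each array, by little on array 4. The mean log2 ratio was 0.14 ± 0.08 (SD, n = 4; adjusted p = 0.138, limma), with a 95% confidence interval of 0.00 to 0.29, so MSTN was not past either threshold. By quantitative PCR, on a larger set of samples, the authors reported MSTN as lower in GO-treated cells. That direction is opposite to the one of this probe. The adjoining downstream probe was well above background on 0 of 4 arrays in either channel (control signals of 3.2 to 6.8), and has no usable ratio. The log2 ratio of INHBA was below that of MSTN on every array, with differences of -0.55 to -0.26 and a mean of -0.40 ± 0.12 (SD, n = 4; exact permutation p = 0.13).

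The receptors were next. TGFBR1, the type I receptor of TGF-β, had 6 probes, of which 5 were tested and 0 passed both thresholds. The probe with the highest signal, at chr25:29681929-29681988, gave 77.2, 99.3, 89.8 and 70.8 in control cells and 105.3, 114.2, 82.6 and 84.6 in GO-treated cells. Array 3 was lower and the other 3 arrays were higher in GO. Its mean log2 ratio was 0.20 ± 0.24 (SD, n = 4; adjusted p = 0.191, limma). Another probe, further upstream at chr25:29682510-29682569, was higher in GO on every array, with 0.30 ± 0.16 (SD, n = 4; adjusted p = 0.0401, limma) and FC 1.23.

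Another 3 TGFBR1 probes follow each other in steps of 30 bases, so that neighbours share 30 of their 60 bases. The first lies at chr25:29695843-29695902, the middle at chr25:29695813-29695872, and the last, which spans 3860 bases of the genome, at chr25:29691983-29695842. Capitals mark 30 bases shared by the first and the middle probe and, in the last probe, the 30 bases that it shares with the end of the middle one.
TGFBR1 first: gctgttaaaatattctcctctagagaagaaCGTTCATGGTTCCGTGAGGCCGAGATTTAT
TGFBR1 middle: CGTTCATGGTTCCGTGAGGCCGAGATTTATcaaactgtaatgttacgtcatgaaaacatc
TGFBR1 last: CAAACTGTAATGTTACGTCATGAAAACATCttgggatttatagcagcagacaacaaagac

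Their log2 ratios were 0.22 ± 0.29, 0.12 ± 0.28 and -0.02 ± 0.14 (SD, n = 4 each), and their confidence intervals overlapped. The untested TGFBR1 probe was well above background on 2 of 4 arrays in each channel.

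TGFBR2, the type II receptor that binds TGF-β first, had signals of 168.1, 207.3, 226.7 and 192.0 in control cells and 145.5, 177.3, 188.5 and 173.4 in GO-treated cells. GO was below control on each array, with log2 ratios of -0.27 to -0.15, and the channels overlapped across arrays. The mean log2 ratio was -0.21 ± 0.05 (SD, n = 4; adjusted p = 0.0452, limma), FC 1.16, which is under the fold change threshold. Its neighbors, 4 probes shifted by a few bases at chr16:53263712-53263776, gave -0.29 to -0.20 and repeat 1 measurement rather than add independent support. With the mean over all TGFBR2 probes the adjusted p was 0.0798 (limma). With normexp background correction and loess it was 0.0979 (limma). The sixth probe, at chr16:53264490-53267432, spans 2943 bases of the genome and gave -0.13 ± 0.31 (SD, n = 4; adjusted p = 0.456, limma), with array 4 above 0. Within each array the log2 ratio of TGFBR1 was above that of TGFBR2, by 0.15 to 0.66 and by 0.41 ± 0.21 on average (SD, n = 4; exact permutation p = 0.13).

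ACVR2B, an activin type II receptor that also binds myostatin, could not be measured. Its only probe, at chr16:46798986-46800595, was well above background on 0 of 4 arrays in both channels, with signals of 2.8 to 7.0, and no ratio is given.

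SMAD3, which carries the signal of TGF-β, activin and myostatin into the nucleus, was read differently by its probes. The probe with the highest signal is shown because its sign went against most of the others. It lies at chr1:122732654-122745080 on the minus strand and spans 12427 bases of the genome.
SMAD3: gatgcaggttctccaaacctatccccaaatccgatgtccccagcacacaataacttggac

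This SMAD3 probe gave control signals of 66.4, 62.3, 85.6 and 70.8 and GO signals of 72.8, 78.2, 100.6 and 87.8, higher in GO on each array. Its mean log2 ratio was 0.25 ± 0.09 (SD, n = 4; adjusted p = 0.0368, limma), FC 1.19, under the fold change threshold. The other 5 SMAD3 probes each overlap the next by at least 57 bases, at chr1:122724631-122724696, and gave -0.15 to 0.02 with adjusted p of 0.243 to 0.905 (limma). Averaged over all 6 probes, the log2 ratio was -0.028 (adjusted p = 0.834, limma). This mean counts the stretch of the 5 overlapping probes 5 times. The direction for SMAD3 thus depended on the probe and on how the probes were weighted.

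**Figure D3:**
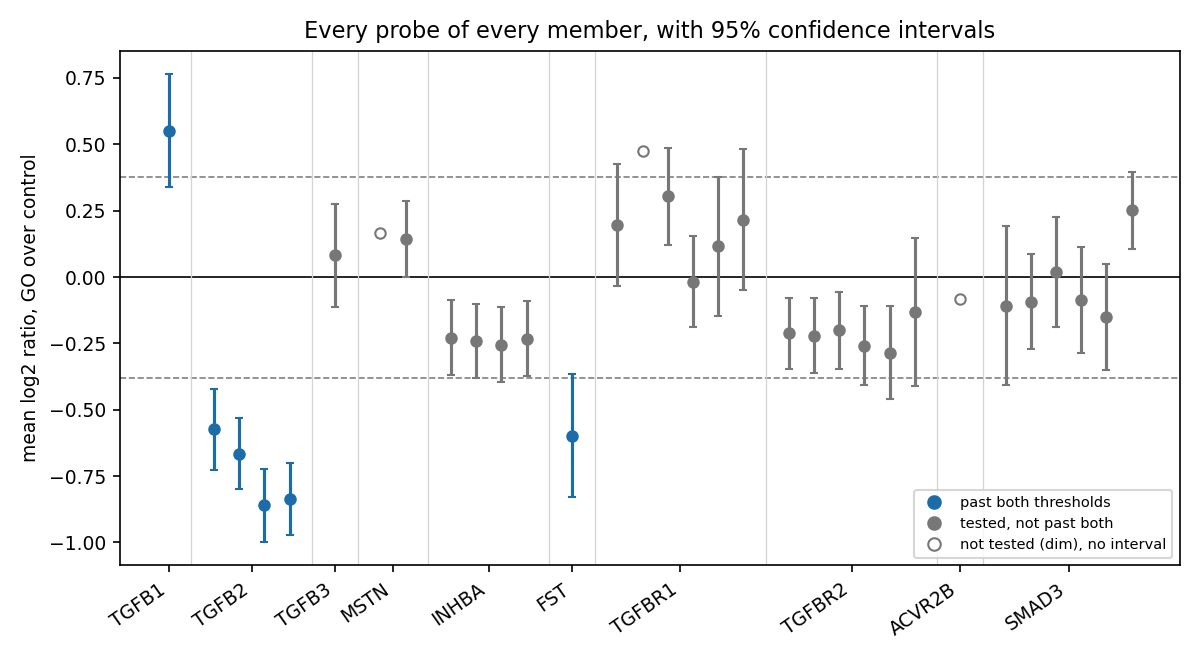
Mean log2 ratio (y axis) of all 32 member probes with 95% confidence intervals from limma, ordered by genome position within each gene (x axis). Blue marks probes past both thresholds, gray marks tested probes that were not, and open points mark probes not tested. All 4 TGFB2 probes are blue, and the SMAD3 probes lie on both sides of 0.

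Other genes of the pathway were taken from lists of 75 genes, of which 71 had a probe and 58 a tested probe. Past both thresholds were 1 gene that was higher and 2 that were lower in GO-treated cells, beside the 3.46% and 5.37% of all gene names. The median log2 ratio of the 58 genes was 0.01, beside 0.01 for all gene names. Lists with 0 genes past both thresholds were the related ligands (1 tested, GDF11), latency and activation genes (8 tested), ligand antagonists (4 tested) and receptors with co-receptors (5 tested). Their log2 ratios ranged from -0.29 to 0.47. At an unadjusted p under 0.05, limma called 24 of the 58 genes, beside 34% of all gene names.

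NEDD4L, a ubiquitin ligase known to mark activated SMAD2 and SMAD3 for degradation, fell. Its log2 ratios were -0.76, -1.06, -0.75 and -0.59 on arrays 1 to 4, with a mean of -0.79 ± 0.20 (SD, n = 4), FC 1.73 lower and an adjusted p of 0.00434 (limma). With normexp background correction and loess its log2 ratio was -0.40 (adjusted p = 0.0262, limma), and it was not past the thresholds in the one-sample test without moderation (adjusted p = 0.0763). The remaining 8 tested genes among the SMAD inhibitors and turnover genes, of 9, were not past both thresholds, and the list median was -0.15. ZFYVE16, an endosomal protein that binds SMAD proteins, fell too, with log2 ratios of -0.55, -0.20, -0.53 and -0.36 and a mean of -0.41 ± 0.16 (SD, n = 4; adjusted p = 0.0177, limma). It was the only 1 of 6 genes in the SMAD transducer list past both thresholds. It was not past both thresholds under 6 of the 12 alternatives. Its log2 ratio was -0.18 with normexp and loess (adjusted p = 0.0908, limma), and -0.36 without array 1 and -0.37 without array 3, under the fold change threshold. The adjusted p was 0.0810 without the filter on dim probes, 0.110 in the one-sample test and 0.332 without the pairing of channels.

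Genes known to be induced by TGF-β did not share a direction. The log2 ratio was below 0 for 11 of the 25 that were tested. Among the 25, 1 rose, 0 fell and 24 were not past both thresholds, with a median log2 ratio of 0.02 and a range of -0.47 to 0.50. The gene that rose was CNN1, calponin of the smooth muscle contractile apparatus, with log2 ratios of 0.62, 0.21, 0.65 and 0.51 and a mean of 0.50 ± 0.20 (SD, n = 4; adjusted p = 0.0148, limma). It was not past both thresholds under 4 of the 12 alternatives. Without array 3 its log2 ratio was 0.44 with an adjusted p of 0.0586 (limma), and the adjusted p was 0.0832 without the filter on dim probes, 0.112 in the one-sample test and 0.381 without the pairing of channels. The adjusted p alone was also met by 5 genes that were picked out after their values were seen. JUNB, BHLHE40 and VCAN had log2 ratios of 0.37, 0.35 and 0.27, and CCN2 and FN1 had -0.21 and -0.26, with adjusted p of 0.0134 to 0.0490 (limma). Over all lists, 9 of the 58 tested pathway genes met the adjusted p, beside 17.1% of all gene names. Among the receptors it was met by 1 gene, ACVR2A, at 0.25 (adjusted p = 0.0430, limma), with its other probe at 0.06. With each array centred on its median and no lowess step, FN1 turned to 0.55, and 13 of the 58 pathway genes were past both thresholds, 10 higher and 3 lower. At that setting 12.6% of all tested probes were past both thresholds, and 51.3% of those were higher. Other probes of the TGF-β-induced genes COL1A2 (2 of 9) and POSTN (2 of 4) were past both thresholds in the main fit, and lower in GO. For DCN, a ligand antagonist, 1 of 2 probes was past both thresholds and higher, at 0.42. The probe standing for each of these genes was not past both.

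**Figure D4:**
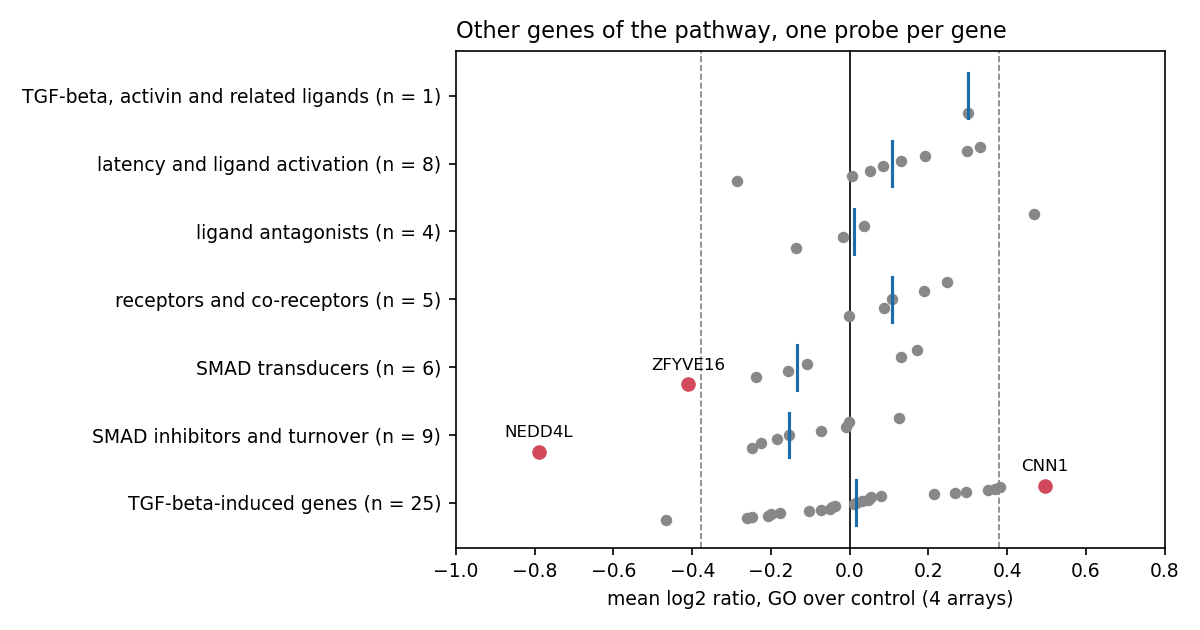
Mean log2 ratio over 4 arrays (x axis) of the tested pathway genes that are not members, by list (y axis), with 1 point per gene. Red points with names are past both thresholds, blue bars mark list medians and dashed lines the fold change threshold. NEDD4L and ZFYVE16 lie on the left, CNN1 on the right, and the other 55 genes were not past both thresholds.

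The cell type named in the labels was checked with marker genes. Of 15 muscle lineage markers, 14 were well above background on all 4 arrays in control cells and 13 in GO-treated cells, PAX7 being among those that were not in either. Past both thresholds were 8 of the 15, all lower in GO, beside the 5.37% of all gene names: MYF5 (log2 ratio -0.93), MYH3 (-0.83), ITGA7 (-0.79), NCAM1 (-0.63), DES (-0.61), CDH15 (-0.49), CHRNA1 (-0.46) and MYOG (-0.40). Their part in the lower TGFB2 and FST ratios was not tested. The count of 8 lower muscle markers was 2 without the filter on dim probes and 2 without the pairing of channels. It was 1 in the one-sample test and 4 to 12 when single arrays were left out. The summed signal of the muscle list was 264269 to 369928 per array in control cells and 178023 to 252613 in GO-treated cells, after lowess. ACTC1 and MYH3 weigh most in this sum, with mean log2 control signals of 17.3 and 16.3. The log2 ratio of ACTC1 was -0.33, and its sign depended on the lowess step, as given below. In bulk RNA, fewer cells of a type and less RNA per cell cannot be told apart. Of 10 fibroblast and fibro-adipogenic markers, 8 were well above background in both channels and PDGFRA was past both thresholds, at 0.87 ± 0.48 on the log2 scale (SD, n = 4; limma, adjusted p = 0.0198). It was not under 5 of the 12 alternatives, among them normexp with loess (0.37) and the fit without array 2 (adjusted p = 0.0740, limma), and with normexp COL1A2 was past both thresholds instead, at 0.40. With median centring and no lowess step 4 fibroblast markers were past both thresholds and higher, PDGFRA (0.79), COL1A2 (0.99), COL3A1 (0.82) and DCN (0.74). At that setting 4 muscle markers were lower (MYF5, CDH15, NCAM1 and ITGA7), ACTC1 was higher at 0.69, and PTPRC of the leukocyte list was higher at 0.52. The summed signal of the fibroblast list was 314859 to 479586 in control and 316187 to 444967 in GO-treated cells, after lowess. COL1A2 had the highest control signal in it, with a log2 ratio of -0.05. TCF21 and CD34 were not above background. Of 7 leukocyte markers 3 were well above background, PTPRC, CD14 and CD68, with a summed signal of 14026 to 17158 in control and 15599 to 21903 in GO-treated cells and with 0 past both thresholds. No adipocyte marker of 6 and no endothelial marker of 5 was well above background on all arrays.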

How the data were processed

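Expression was measured in differentiating equine satellite cells on 4 two-color Agilent horse arrays. The authors scanned the arrays with Feature Extraction (version 10.10.1.1 per the file headers, another version per the methods). The deposited intensity values used here are processed signals: Feature Extraction subtracted the background, removed spatial trends and scaled both dyes with a linear and a lowess step. Each deposited log10 ratio divides the processed Cy5 by the processed Cy3 intensity. The authors' series table holds 180880 log10 ratios, and all match the array files. Both channels were normalized within each array, so an equal shift of most genes would not be seen.

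The ratios were converted to log2, the 1417 control spots and outlier spots were left out, and spots of 1 probe were averaged. Probes well above background in 1 channel on all 4 arrays (26831 of 43603) were tested with limma (version 3.58.1, R version 4.3.3), lmFit on an intercept and eBayes, two-sided, with 3 residual degrees of freedom and a prior SD (log2) of 0.144 at 3.60 prior degrees of freedom. The script was tested on simulated ratios. Thresholds follow the methods, which do not name the test. The authors' list of changed genes at these thresholds is far shorter than the set of changed probes here. It names TGFB2 but neither TGFB1 nor FST. The array ratio pairs both channels. Differences between members were tested by an exact sign-change permutation test, adjusted over 6 pairs. A gene is represented by its tested probe with the highest mean signal over both channels. Genes named by rule are the 10 members and every other pathway gene past both thresholds with the same sign on all 4 arrays. Further pathway genes were named outside this rule, with their values known. The members, pathway lists and marker lists were chosen with earlier results of these data known. The result of 1 marker is not reported here.

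Genes missing under their symbol were looked up by older names or by descriptions in the files, and accessions were matched to symbols through RefSeq's table of the TB-T2T assembly, used for names only. Positions are those of the files (EquCab1), and the genome itself was not used here. Alternatives were normexp (offset 50) with loess, median centring without lowess, the series table, other filters on dim probes, a one-sample test without moderation, channels as separate samples, the mean over a gene's probes, and leaving out each array.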

Additional observations from a re-analysis of the deposited data

Results flagged for a closer look

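The log2 ratios of 41 items on the 4 arrays (member probes, named pathway genes and differences between members) were examined for a single array far from the rest. In 1 of the 41 the gap exceeded Dixon's 95% critical value, and chance alone flags about 1 in 20 such groups of 4. The downstream MSTN probe had a log2 ratio of 0.58 on array 2, and its gap was 0.845 of the range. This probe was not well above background on any array, so the value carries no level of MSTN.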

How the results depend on the processing

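TGFB2 stayed past both thresholds under all 12 alternatives, with log2 ratios of -0.87 to -0.72. The series table, 1 of the 12, repeats the main values. Only normexp with loess, median centring and the mean over probes could turn the direction of TGFB2, and they gave -0.87, -0.72 and -0.73. The count of 3 members was 1, TGFB2 alone, without the filter on dim probes, with the one-sample test without moderation, and without the pairing of channels by array (no replicate block). These 3 settings cannot move the log2 ratios of TGFB1 (0.55) and FST (-0.60), and their adjusted p were 0.0758, 0.105 and 0.287 for TGFB1 and 0.0816, 0.111 and 0.286 for FST. Leaving out single arrays gave 2 to 3 members, with FST at -0.68 to -0.49 and TGFB1 at 0.49 to 0.65. FST was lost without array 2, at -0.60 with an adjusted p of 0.0545. SMAD3 turned to -0.028 with the mean over its probes, most of which overlap nearly in full. Of the 10 alternatives run for the 6 differences between members, 3 leave those values unchanged by construction. Each difference had the same sign on every array, so leaving out an array could not turn it. All 6 kept their sign with normexp and loess and with median centring. They also did with the mean over probes, which leaves 1 of the 6 unchanged. The 3 pathway genes became 13 with median centring without lowess (10 higher, 3 lower), 1 without the filter on dim probes (NEDD4L) and 1 without the replicate block (NEDD4L). They became 0 with the one-sample test without moderation (11 at an unadjusted p under 0.05), and 2 to 5 when single arrays were left out. ZFYVE16 was not past the thresholds under 6 of the 12 alternatives and CNN1 under 4. Over all tested probes, 37.3% of the changed probes were higher in GO, and 51.3% with median centring without lowess. These settings changed the count of 2399 changed probes to 3389 (median centring without lowess), 1297 (normexp and loess), 908 (no filter on dim probes), 147 (one-sample test), 370 (no replicate block), and 1566 without array 2. The cause of these changes was not tested. Signal over background was 2.85 to 4.37 (median spot per channel). ACVR2B, 1 MSTN probe and 1 TGFBR1 probe were not above the background filter and have no usable ratio.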
